A study of Mus musculus with 11 samples.

Results

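The genes of cholesterol and fatty acid synthesis were followed in the RNA of light zone (LZ) germinal center B cells and memory B cells (MBCs) of immunized mice. They are 32 of the 48795 genes in the deposited expression table, found there by the Ensembl identifier of each mouse symbol. By role they form 7 genes of the mevalonate and isoprenoid steps, 11 that turn farnesyl units into cholesterol through squalene, 6 that control the SREBP factors or carry sterol, and 8 of fatty acid synthesis and desaturation. RNA was sequenced in 11 libraries from the spleens of 8 mice, and the values are TPM, a relative abundance of transcripts in which reads are divided by transcript length and scaled to the same total in every library, so that levels of different genes can be set side by side.

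All mice were females aged 8 to 12 weeks that had received sheep red blood cells (SRBC) by vein 10 days earlier, and no unimmunized group was compared. Myc WT mice carried unmutated Myc, and in Myc VD mice the Myc locus encoded a MYC with valine exchanged for aspartate, a form that binds MAX but is impaired in binding MIZ1. The change lay at the endogenous locus, and no promoter or Cre confined it to B cells. LZ B cells (B220+ Fas+ CD86high CXCR4low, without CD138, IgD or CD38) came from Myc WT mice 1 to 4 and from Myc VD mice 5 to 8, numbers that only name the animals. MBCs (CD38+ CD273+, without IgD) came from Myc WT mice 1, 3 and 4, so that each MBC library had an LZ library of the same animal. Myc WT mice 1 to 3, Myc WT mouse 4 and the Myc VD mice bear different prefixes in their titles, so that genotype and title prefix cannot be told apart.

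Cholesterol is built from acetyl-CoA through mevalonate, isoprenoids and squalene, while fatty acids are built from acetyl-CoA through malonyl-CoA and are then elongated and desaturated. The factors SREBP-1 and SREBP-2 switch on both sets of genes. When sterol in the endoplasmic reticulum is low, SCAP escorts them to the Golgi for cleavage, and when it is high, INSIG proteins hold SCAP back. Activated and dividing B cells need membrane lipid, and the mevalonate steps also supply the prenyl groups that anchor small GTPases.

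Promoter windows of RefSeq (GRCm38.p6), 250 bases before to 50 bases after a start site, were matched by symbol for 25 of the 32 genes, with 33 windows. No window was matched for Fdps, Fdft1, Sqle, Stard4, Scd1, Scd2 and Fads1. Stretches of 160 bases on the strand of the gene, ending before its start site, are given for 4 genes. They were Hmgcs1 (chr13:119690191-119690350, plus strand), which held the only sterol regulatory element type match, Hsd17b7 (chr1:169969242-169969401, minus strand), which held matches of both other motifs, Lss (chr10:76531428-76531587, plus strand), which held a single match, and Mvk (chr5:114444109-114444268, plus strand), which held 4 matches. Capitals mark matches on either strand of TCACNCCAC (sterol regulatory element type, where N is any base), CCAAT (read as ATTGG on the other strand, the motif of NF-Y) and CACGTG (an E-box, the motif of MYC with MAX, and of USF factors).
Hmgcs1: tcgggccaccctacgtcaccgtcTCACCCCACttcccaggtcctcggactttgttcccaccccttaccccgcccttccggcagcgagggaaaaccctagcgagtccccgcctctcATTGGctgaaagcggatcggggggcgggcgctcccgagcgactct
Hsd17b7: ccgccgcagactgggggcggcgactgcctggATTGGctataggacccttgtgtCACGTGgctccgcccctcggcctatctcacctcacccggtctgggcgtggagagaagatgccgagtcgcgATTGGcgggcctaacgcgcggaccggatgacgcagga
Lss: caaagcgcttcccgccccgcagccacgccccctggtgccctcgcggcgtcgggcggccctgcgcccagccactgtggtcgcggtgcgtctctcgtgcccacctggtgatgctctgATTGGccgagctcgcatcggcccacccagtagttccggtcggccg
Mvk: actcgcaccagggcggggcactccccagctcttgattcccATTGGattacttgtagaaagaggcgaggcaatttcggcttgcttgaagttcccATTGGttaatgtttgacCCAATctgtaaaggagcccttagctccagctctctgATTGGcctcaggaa

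CCAAT was the motif that most of these promoters held. At least 1 match lay in the windows of 20 of the 25 genes (80%), against 42.3% of 17492 protein-coding genes with a window. All 9 genes of the squalene to cholesterol steps with a window held it (Lss, Cyp51, Tm7sf2, Msmo1, Nsdhl, Hsd17b7, Ebp, Sc5d and Dhcr7). CACGTG was found for 5 of the 25 genes (20%; Sc5d, Hsd17b7, Dhcr7, Scap and Insig1), against 8.91% of the protein-coding genes. TCACNCCAC was found for 1 of the 25 (4%), Hmgcs1, at -137 from the start site, against 1.41%. Matches may overlap each other, as CCAAT and ATTGG did in the window of Fasn. These are matches of letters in windows of 300 bases, and binding was not measured at them here.

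The libraries differed in what else they held. Between 15460 and 19537 genes were above 0 in the Myc WT LZ libraries, between 13169 and 16421 in the Myc VD LZ libraries and between 11527 and 16040 in the MBC libraries. The number of reads is unknown, since TPM keep no depth, and the spread between animals is the only error that can be given. Ribosomal RNA genes took 35.7% to 44.5% of the TPM in Myc WT LZ, 44.1% to 61.3% in Myc VD LZ and 36.1% to 37.5% in MBCs. Protein-coding genes took 46.9% to 57.5%, 30.7% to 47.7% and 49.5% to 52.6% in the same order, so lipid synthesis genes are also given as protein-coding TPM, rescaled so that the protein-coding genes alone make up the total of a library. Over 7 germinal center and LZ genes the TPM summed to 905 to 1127 in Myc WT LZ and to 444 to 553 in MBCs, and over 6 memory genes to 32.5 to 36.0 and to 506 to 816. Over 3 genes of naive follicular B cells they summed to 363 to 367 in Myc WT LZ and to 788 to 834 in MBCs, and 2 of these, Fcer2a and Ighd, were higher in MBCs at an adjusted p under 0.05, although the MBCs were sorted without IgD. The part of naive cells in the MBC values was not tested. Of the 7 germinal center and LZ genes 4 were lower in MBCs at an adjusted p under 0.05, and of the 6 memory genes 5 were higher. Among the rest, Cd83 was at 166 to 274 TPM in Myc WT LZ and at 155 to 307 TPM in MBCs. Nt5e was at 10.8 to 13.4 TPM and at 6.80 to 11.5 TPM. Fas, Cd86, Cd38 and Pdcd1lg2 (CD273) of these lists encode markers that were also used in the sort. In bulk RNA, fewer cells of a type and less RNA per cell cannot be told apart.

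In Myc WT LZ B cells the lipid synthesis genes were among the well expressed genes. All 32 were above 1 TPM in each of the 4 libraries. Ranked among the 21759 protein-coding genes, their median percentile was 78.9 to 81.2 across the Myc WT LZ libraries and 77.5 to 83.4 across the Myc VD LZ libraries, against 71.3 to 71.8 across the MBC libraries. Scd1, a stearoyl-CoA desaturase, stood highest, with a mean of 139 TPM ± 13.95 (SD, n = 4). Cyp51, Idi1, Fdps, Hmgcs1, Srebf2, Sqle, Msmo1 and Pmvk followed at means between 36.7 and 53.1 TPM, and the SDs of neighbours in that order overlapped. Elovl6, an elongase of fatty acids, was lowest at 2.12 TPM ± 0.33, below Fads2 (4.49 ± 2.02) and Mvk (4.91 ± 2.43).

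**Figure D1:**
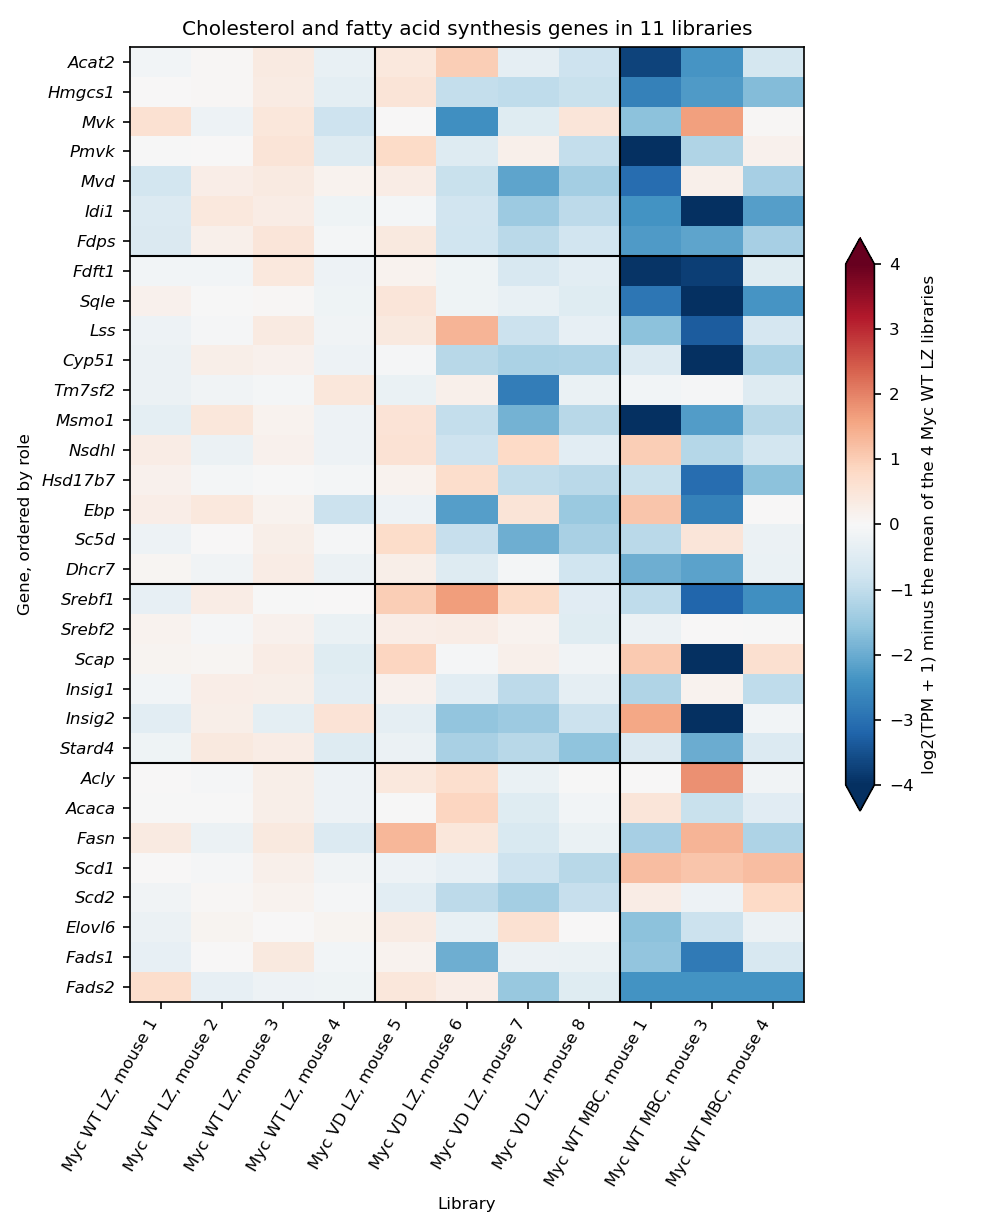
Heat map of log2(TPM + 1) of the 32 lipid synthesis genes (vertical axis, by role, with lines between the roles) in the 11 libraries (horizontal axis, with lines between the groups), each as the difference from the mean of the 4 Myc WT LZ libraries, in colour from -4 to 4. The 3 MBC columns are blue for most sterol genes and red for Scd1, and among the Myc VD columns that of mouse 5 is the palest or reddest for most sterol genes.

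Several genes of cholesterol synthesis had less RNA in MBCs than in Myc WT LZ B cells. In a limma fit of log2(TPM + 1) over 13245 genes, with Benjamini-Hochberg adjustment over all of them, 6 of the 32 genes were lower at an adjusted p under 0.05 (Hmgcs1, Idi1, Fdps, Sqle, Srebf1 and Fads2), where 5.04% of all genes tested were lower. Fads2, listed at 0 in every MBC library, entered the test through its LZ values alone, and the other 5 had values above 0 in all MBC libraries. Of the 18 genes of the mevalonate and squalene to cholesterol steps, 4 passed. Scd1 alone was higher, where 4.17% of all genes were. These calls take libraries of the same animal as independent. With the mouse as replicate block, described below, 0 of the 32 genes passed, where 0.989% of all genes were higher and 0.897% lower. In the fit without the block, 28 of the 32 were lower by direction, with a median log2 difference of -1.21. Of the protein-coding genes tested 55.2% were lower, with a median of -0.13. The median was -2.07 for the mevalonate and isoprenoid genes, -1.86 for the squalene to cholesterol genes, -0.83 for SREBP control and sterol transport and -0.34 for fatty acid synthesis and desaturation. No p is given for these medians. Without MBCs of mouse 3 they were -2.20, -1.11, -0.35 and -0.50 in the same order, and 25 of the 32 were lower. Over all left-out libraries the first ran from -2.49 to -1.53, the second from -2.05 to -1.11, the third from -1.497 to -0.35 and the fourth from -0.50 to -0.097. By mean TPM 24 of the 32 were lower, beside 47.1% of all genes tested, since Ebp, Scap, Insig2 and Fasn had a higher mean TPM in MBCs but a lower mean on the log2 scale. Ebp, Scap and Insig2 were at or near 0 in MBCs of mouse 3.

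Low values gathered in the libraries of 2 MBC animals. Under 1 TPM were 8 of the 32 genes in MBCs of mouse 1, 11 in those of mouse 3 and 1 in those of mouse 4. Of 6910 genes with a mean of 10 TPM or more in Myc WT LZ, 6.96%, 11.9% and 1.14% were under 1 TPM in the MBC libraries of mice 1, 3 and 4, against 0.405% to 0.593% in the Myc WT LZ libraries, and 25 of the 32 genes are among those 6910, of which 4, 7 and 0 were under 1 TPM. The library of mouse 3, with the lowest MBC values of Idi1, Sqle, Lss, Cyp51 and Srebf1, also held 6713 TPM of 5 erythroid genes, against at most 53.4 TPM in the other MBC libraries and at most 225 TPM in Myc WT LZ. The part of these losses and of the erythroid RNA in the differences was not tested. With each library left out in turn, on TPM, the log2 difference ran from -2.49 to -2.01 for Hmgcs1, -3.68 to -2.30 for Idi1, -2.20 to -1.72 for Fdps, -3.97 to -2.62 for Sqle, -2.81 to -1.74 for Srebf1, and 1.15 to 1.26 for Scd1.

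The ranges of the libraries gave the same picture. In 16 of the 32 genes every MBC library lay below every Myc WT LZ library, where 14.4% of all genes tested did so, and in 1, Scd1, every MBC library lay above, where 11.8% did. As protein-coding TPM the counts were again 16 (15.4% of all genes) and 1 (12.3%). Within animals, 18 of the 32 genes were lower in the MBCs of all 3 mice than in their own LZ B cells, where 20.5% of all genes tested were. Scd1 was the only one of the 32 that was higher in all 3 mice, where 17.1% of all genes were.

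**Figure D2:**
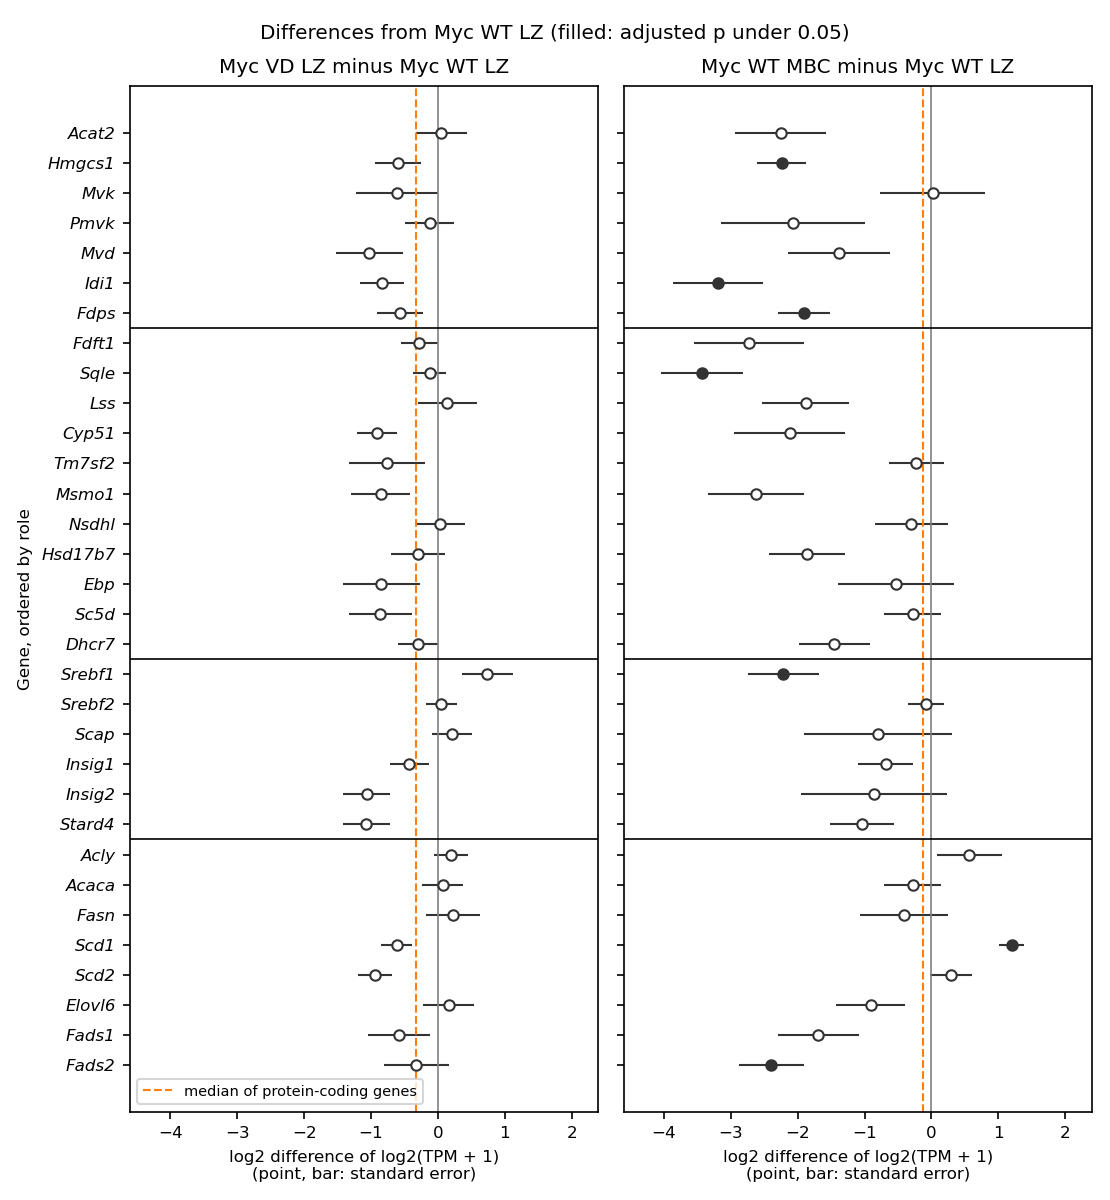
Log2 difference of log2(TPM + 1) from Myc WT LZ for the 32 genes, by role, in Myc VD LZ (left) and in Myc WT MBCs (right), with points for the limma estimate, bars for its standard error, filled points for an adjusted p under 0.05 and a dashed line for the median of all protein-coding genes (-0.32 and -0.13). On the right 6 filled points lie below 0 and that of Scd1 above it, at 1.20, while on the left no point is filled.

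Among the mevalonate genes, Hmgcs1, which makes HMG-CoA, was at 44.9, 45.3, 55.2 and 33.6 TPM in LZ B cells of Myc WT mice 1 to 4, against 5.93, 8.33 and 12.45 TPM in MBCs of mice 1, 3 and 4. The groups did not overlap, the highest MBC library being at less than the lowest LZ library, and the log2 difference was -2.24 (SE 0.36, limma adjusted p = 0.00873). Its promoter stretch, given above, is the one with the sterol regulatory element type match. Idi1, which interconverts the isopentenyl and dimethylallyl building blocks, was at 30.6, 59.9, 54.9 and 39.5 TPM in LZ B cells, against 7.72, 0.46 and 8.92 TPM in MBCs. Mouse 3 was the lowest MBC library and far under the other two, and the log2 difference was -3.19 (SE 0.67, adjusted p = 0.0234), or -2.30 without that library. A processed pseudogene, Gm13502, matches Idi1 at 100% over 684 bases and held a mean of 4.71 TPM beside 27.9 TPM for Idi1, so that reads may have been divided between them.

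Fdps, which makes farnesyl diphosphate, the last product shared by sterols and prenyl groups, stood at 28.9, 50.4, 61.2 and 41.1 TPM in LZ B cells. In MBCs it stood at 8.25, 9.28 and 17.0 TPM, below all LZ libraries, with a log2 difference of -1.90 (SE 0.39, adjusted p = 0.0219). Acat2, which joins acetyl-CoA units at the entry of the pathway, was at 15.9, 17.7, 22.2 and 13.78 TPM in LZ B cells, against 0.40, 2.52 and 10.2 TPM in MBCs. Its groups did not overlap either, but the MBC libraries spread widely and the test was not passed (log2 difference -2.25, SE 0.68, adjusted p = 0.0706). A related gene, Acat3, matches 97.7% of 1477 of its bases. The kinases and the decarboxylase between HMG-CoA and Idi1 varied widely between MBC libraries, with Mvk at 0.77 to 16.2 TPM, Pmvk at 0 to 40.5 TPM and Mvd at 0 to 8.58 TPM. None of these 3 passed the test, and the log2 difference of Mvk was 0.02, or -0.80 without MBCs of mouse 3.

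Of the 11 squalene to cholesterol genes 1 passed the test in MBCs. The log2 difference was negative for 11 of 11, and the mean TPM was lower for 10, Ebp being the exception. Without MBCs of mouse 3 the log2 difference was negative for 9 of 11, and those of Ebp (0.56) and Nsdhl (0.13) were positive. Sqle, the squalene epoxidase and a rate-limiting step of the sterol branch, was at 44.5, 38.9, 41.3 and 34.8 TPM in LZ B cells, against 4.46, 0.24 and 6.99 TPM in MBCs. The LZ libraries lay close together, all MBC libraries lay far below them, and the log2 difference of -3.43 (SE 0.62, adjusted p = 0.0130) was the most negative of the 32 genes. Without MBCs of mouse 3 it was -2.62, less negative than that of Msmo1 (-2.81). Fdft1, the squalene synthase, was at 14.8, 15.0, 21.9 and 13.7 TPM in LZ B cells, against 0.13, 0.25 and 11.25 TPM in MBCs. Mouse 4 alone approached the LZ range, and the adjusted p was 0.0722.

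Msmo1, a methyl sterol oxidase, fell short of the threshold in the same way. It was at 27.8, 50.5, 40.9 and 31.6 TPM in LZ B cells, against 0.65, 6.95 and 16.5 TPM in MBCs (log2 difference -2.62, SE 0.72, adjusted p = 0.0552). Cyp51, which takes a methyl group off lanosterol, was at 44.9, 62.6, 59.0 and 45.7 TPM in LZ B cells, against 36.0, 1.28 and 21.1 TPM in MBCs. Its groups did not overlap, although mouse 1 came near the LZ range, and the adjusted p was 0.14. Dhcr7, the last reductase before cholesterol, was at 16.8, 14.2, 19.4 and 13.2 TPM in LZ B cells, against 3.27, 2.82 and 12.97 TPM in MBCs, where mouse 4 reached nearly the lowest LZ library (adjusted p = 0.122).

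Lss, which closes squalene epoxide to lanosterol, was at 8.56, 9.76, 13.2 and 9.08 TPM in LZ B cells, against 2.51, 0.10 and 5.93 TPM in MBCs, without overlap (adjusted p = 0.104). Hsd17b7, a 3-ketosteroid reductase of the pathway, was at 13.4, 11.1, 11.6 and 11.1 TPM in LZ B cells, against 5.89, 0.56 and 3.09 TPM in MBCs, without overlap (adjusted p = 0.0743). The other 4 genes overlapped between the groups. Tm7sf2, Nsdhl, Ebp and Sc5d, which reduce, demethylate, isomerize and desaturate the sterol ring, had log2 differences of -0.22, -0.30, -0.53 and -0.28. In Ebp the MBC libraries ran from 0 to 12.8 TPM around LZ values of 2.59 to 7.66 TPM.

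**Figure D3:**
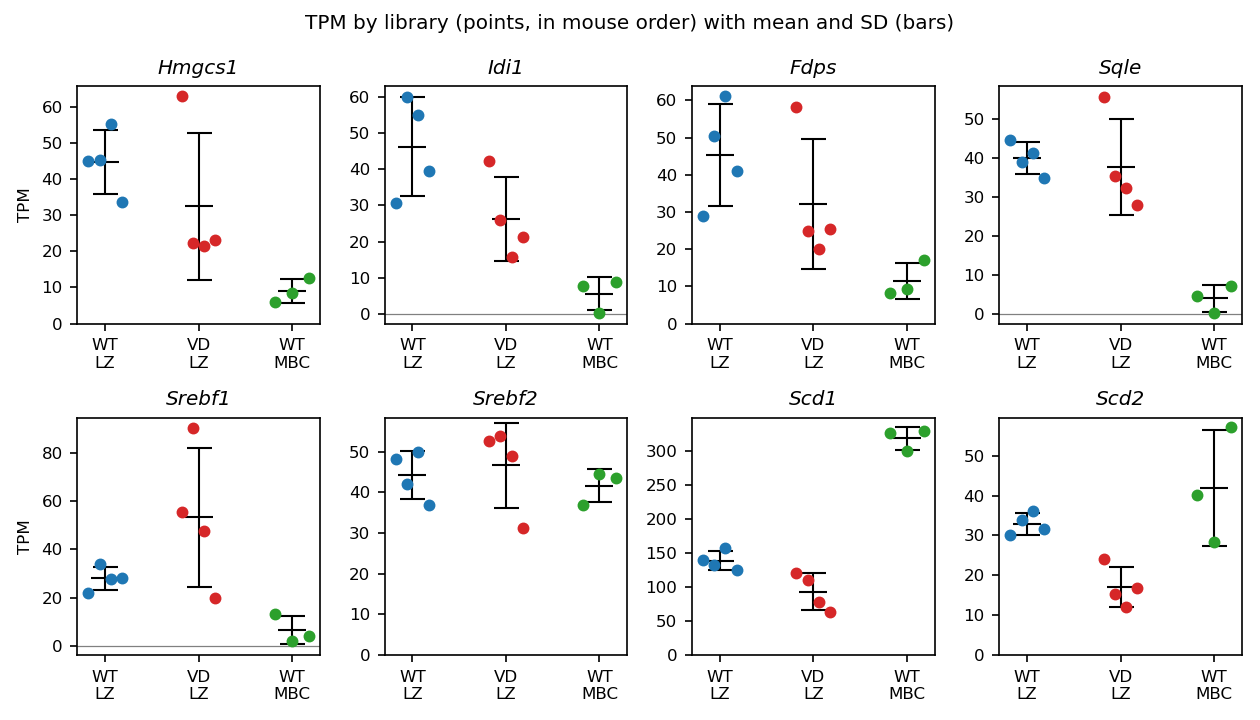
TPM by library of 8 of the genes, 1 panel each, with points for the libraries in mouse order within Myc WT LZ (n = 4), Myc VD LZ (n = 4) and Myc WT MBC (n = 3), and bars for the mean and SD. The MBC points of Hmgcs1, Idi1, Fdps, Sqle and Srebf1 lie below all Myc WT LZ points, those of Srebf2 lie between 37.0 and 44.4 TPM within the LZ range, and those of Scd1 lie at 299 TPM or more.

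Of the SREBP genes themselves, Srebf1 passed the test in MBCs and Srebf2 did not. With the mouse as replicate block Srebf1 did not pass either (limma adjusted p = 0.194). Srebf1, which encodes the SREBP-1 proteins that drive fatty acid genes above all, was at 21.9, 34.0, 27.6 and 28.2 TPM in LZ B cells, against 13.2, 2.19 and 4.20 TPM in MBCs. Each MBC library was below each LZ library, with a log2 difference of -2.21 (SE 0.53, adjusted p = 0.0350). Srebf2, which encodes SREBP-2, the factor of the sterol genes, was at 48.1, 42.1, 50.04 and 36.8 TPM in LZ B cells, against 37.0, 44.4 and 43.6 TPM in MBCs. Its groups overlapped, with a log2 difference of -0.08 (SE 0.26, adjusted p = 0.878). A difference between Srebf1 and Srebf2 was not tested.

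Scap, the sterol-sensing escort, was at 18.3, 18.1, 21.1 and 11.8 TPM in LZ B cells, against 36.4, 0.04 and 27.3 TPM in MBCs. A single library, that of mouse 3, was nearly without it, and the other 2 were above all LZ libraries. Insig2, which holds SCAP back, was at 65.9, 0.46 and 20.4 TPM in MBCs, against 16.3 to 33.0 TPM in LZ B cells, with mouse 1 above that range, mouse 3 nearly at 0 and mouse 4 within it. Without MBCs of mouse 3 the log2 differences of Scap and Insig2 turned from -0.80 and -0.85 to 0.86 and 0.71. Insig1, itself a target of SREBP factors, was at 30.2, 39.7, 38.9 and 24.4 TPM in LZ B cells, against 13.7, 36.3 and 15.8 TPM in MBCs, where mouse 3 was the one within the LZ range (adjusted p = 0.318). Stard4, which carries cholesterol between membranes, was at 17.4, 26.0, 24.3 and 13.4 TPM in LZ B cells, against 12.8, 4.21 and 13.1 TPM in MBCs. Its groups nearly met, with an adjusted p of 0.203.

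Of the 8 fatty acid genes, 1 passed as higher in MBCs, Scd1, and 1 as lower, Fads2. Scd1, which puts the double bond into stearoyl-CoA and palmitoyl-CoA, was at 139, 133, 157 and 125 TPM in LZ B cells, against 326, 299 and 330 TPM in MBCs. All 3 MBC libraries agreed closely and lay far above the LZ libraries, 2.29-fold higher on the log2(TPM + 1) scale (log2 difference 1.20, SE 0.19, adjusted p = 0.00825). Scd2, the other stearoyl-CoA desaturase measured, was at 30.0, 34.0, 36.2 and 31.6 TPM in LZ B cells, against 40.2, 28.4 and 57.4 TPM in MBCs, with overlap (log2 difference 0.29, SE 0.32, adjusted p = 0.597). A transcript of Scd1 shares 95.5% of 623 bases with Scd2, so that some reads may have been assigned between them. Fads2, the delta-6 desaturase, was at 7.50, 3.19, 3.61 and 3.65 TPM in LZ B cells and is listed at 0 in all 3 MBC libraries. It passed the filter on mean TPM through its LZ values alone. Its limma adjusted p of 0.0212 is therefore not taken as support for a difference, and no fold is given. A value of 0 can be a failed estimate in a table without read counts, and of the 6668 genes that averaged 10 TPM or more across LZ libraries of both genotypes, 253, 421 and 57 also stand at 0 in MBCs of mice 1, 3 and 4.

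Acly, which makes cytosolic acetyl-CoA from citrate, was at 29.7, 27.9, 34.4 and 25.1 TPM in LZ B cells, against 29.4, 107 and 26.2 TPM in MBCs. Fasn, the fatty acid synthase, was at 32.4, 21.2, 33.4 and 16.9 TPM in LZ B cells, against 9.32, 65.1 and 10.0 TPM in MBCs. In both genes mouse 3 was the high MBC library, while the other 2 were within the LZ range for Acly and below it for Fasn. It is the library with the erythroid RNA named above, whose part in these values was not tested. Without mouse 3 among the MBCs, the same 6 genes as with it were lower (5.9% of all genes), and Fasn was not among them (log2 difference -1.28, adjusted p = 0.0561). With mouse 3 left out and with protein-coding scaling, an alternative chosen after seeing the data, Fasn was one of 9 of the 32 genes that were lower at an adjusted p under 0.05, where 7.29% of all genes were.

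Acaca, the acetyl-CoA carboxylase that commits carbon to fatty acids, was at 14.8, 14.7, 17.9 and 12.9 TPM in LZ B cells, against 21.5, 7.59 and 10.8 TPM in MBCs, on both sides of the LZ range (adjusted p = 0.714). Fads1, the delta-5 desaturase, was at 4.77, 6.29, 8.41 and 5.70 TPM in LZ B cells, against 1.38, 0 and 3.61 TPM in MBCs, without overlap (adjusted p = 0.115). Elovl6 was at 1.65, 2.34, 2.14 and 2.36 TPM in LZ B cells, against 0, 0.73 and 1.64 TPM in MBCs, so that the groups nearly touched (adjusted p = 0.295).

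Summed by role, the sterol genes took a smaller part of the protein-coding RNA in MBCs, and the larger part of the fatty acid genes was mostly Scd1. Mevalonate and isoprenoid genes took 0.0388% ± 0.00589 (SD, n = 4) in Myc WT LZ and 0.0116% ± 0.00679 (n = 3) in MBCs, and squalene to cholesterol genes took 0.0458% ± 0.00164 and 0.0190% ± 0.00665, both without overlap. Fatty acid genes took 0.0491% ± 0.00275 and 0.0901% ± 0.00908, of which Scd1 made up 252 to 277 protein-coding TPM in Myc WT LZ and 592 to 659 in MBCs. Without Scd1 the other 7 fatty acid genes took 0.0208% to 0.0241% in Myc WT LZ and 0.0205%, 0.0413% and 0.0208% in MBCs of mice 1, 3 and 4, so that mouse 3 alone was higher. The 32 genes together held 0.166% ± 0.00791 and 0.146% ± 0.00489, and without Scd1 they held 0.139% ± 0.00836 and 0.0838% ± 0.00169. These sums are described without a test.

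**Figure D4:**
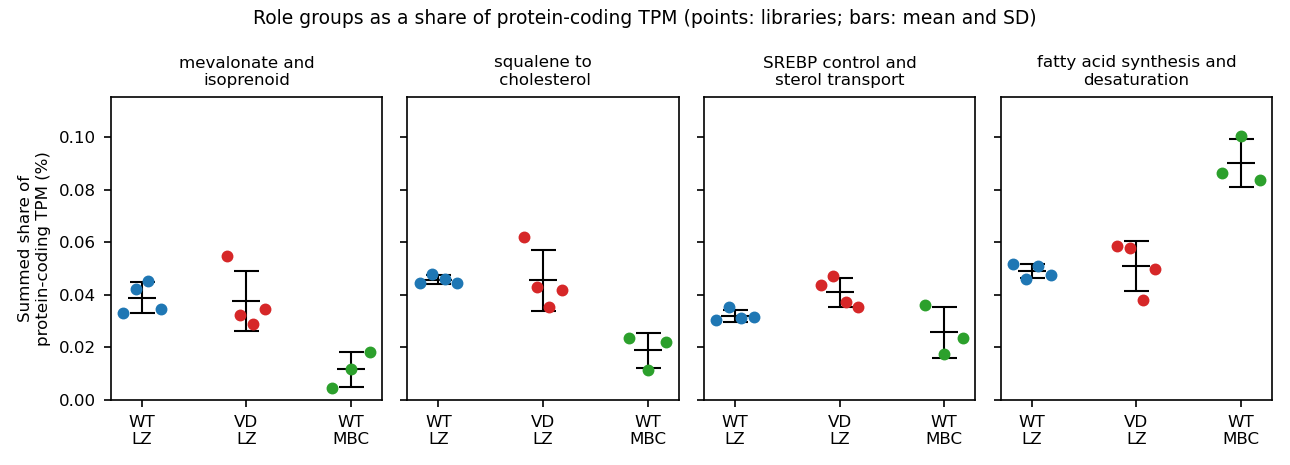
Summed share of the protein-coding TPM in percent (vertical axis) of each role group, 1 panel per role, with points for the libraries of Myc WT LZ (n = 4), Myc VD LZ (n = 4) and Myc WT MBC (n = 3) and bars for the mean and SD. The MBC points are lowest in both panels of sterol synthesis and highest for fatty acid synthesis, and the highest Myc VD point of both sterol panels is mouse 5.

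The calls in MBCs depended on how the animals were treated. The MBCs and LZ B cells of mice 1, 3 and 4 came from the same animals, and a fit with the mouse as replicate block, which leaves out LZ mouse 2, passed 0 of the 32 genes, while 0.989% of all 13151 genes tested were higher and 0.897% lower. There the median log2 difference of the 32 genes was -1.11. At an unadjusted p under 0.05, 10 of the 32 were lower and 1 higher, where 9.93% and 6.86% of all genes were, and the adjusted p was 0.0574 for Sqle, 0.0904 for Idi1, 0.0973 for Hmgcs1 and 0.102 for Scd1. Without the block, leaving out LZ mouse 2 or LZ mouse 3 kept Hmgcs1 as the only lower gene of the 32 (1.04% and 1.03% of all genes were lower), leaving out LZ mouse 1 kept Fdps and Hmgcs1 (1.31%), and leaving out LZ mouse 4 kept Hmgcs1 and Sqle (2%). Leaving out MBC mouse 4 gave 12 lower genes of the 32, where 14% of all genes were lower. The 8 proliferation genes, of which 7 were lower in MBCs, summed to 1012 to 1941 TPM in Myc WT LZ and to 286 to 458 TPM in MBCs. The 6 macrophage and myeloid genes, of which 3 were higher in MBCs, summed to 7.69 to 15.4 TPM and to 52.4 to 215 TPM. Those called were Csf1r, Vcam1 and Itgam, at 3.84 to 31.1 TPM in MBCs and at 0 to 0.37 TPM in Myc WT LZ. The part of either list in the differences of the lipid synthesis genes was not tested.

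Myc VD was compared with Myc WT in LZ B cells, to see what these genes do where MYC is impaired in binding MIZ1. The same 4 Myc WT LZ libraries served as controls as for the MBCs. None of the 32 genes passed the test in limma (12869 genes tested), in either direction, where 0.00777% of all genes passed as higher and 0.0389% as lower. Without adjustment, the limma p was under 0.05 for 6 of the 32 as lower (Idi1, Cyp51, Insig2, Stard4, Scd1 and Scd2) and for 0 as higher. Of all 12869 genes tested, 2020 were lower and 160 higher in this way, so that the share of lower genes was similar among the 32 and among all genes. By direction, 22 of the 32 were lower, with a median log2 difference of -0.38, while 76.7% of the protein-coding genes were lower, with a median of -0.32. With each library scaled to its protein-coding TPM, the median of the 32 genes was -0.05 and that of the protein-coding genes 0.03, with 17 genes lower and 15 higher.

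The groups did not overlap in TPM for Scd1 and Scd2, both lower in Myc VD, where 9.16% of all genes tested were lower without overlap, and for none higher, where 0.816% were. As protein-coding TPM, Scd2 alone was lower without overlap (3.2% of all genes), and Acly, Srebf1, Srebf2 and Scap were higher without overlap (4.41% of all genes). Scd1 was at 121, 110, 77.4 and 62.8 TPM in Myc VD mice 5 to 8, against 125 TPM in the lowest Myc WT library. Its log2 difference was -0.62 (SE 0.23, adjusted p = 0.225) and -0.23 with protein-coding scaling. Scd2 was at 24.0, 15.4, 12.1 and 16.9 TPM in Myc VD, all below the 30.0 TPM of the lowest Myc WT library. Its log2 difference was -0.95 (SE 0.25, adjusted p = 0.129, exact permutation p = 0.0286, the smallest that 70 groupings allow) and -0.58 with protein-coding scaling. As protein-coding TPM, Scd1 overlapped, at 195 to 262 in Myc VD against 252 to 277 in Myc WT. The share of the 32 genes that lay lower without overlap, 2 of 32, was no larger than that of all genes.

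Myc VD mice differed among themselves in the sterol genes. Mouse 5 held the highest Myc VD value for 20 of the 32 genes, where it did so for 40.2% of all genes tested, and its protein-coding share of the TPM was the highest of the Myc VD libraries (47.7%). As protein-coding TPM it held the highest value for 14 of the 32, against 24.4% of all genes, and for 10 of the 18 genes of the mevalonate and squalene to cholesterol steps. Mouse 7 held the lowest value for 16 of the 32 in TPM (19.7% of all genes) and for 18 of the 32 as protein-coding TPM (22.3%). In the other groups, Myc WT LZ mouse 3 held the highest TPM for 17 of the 32 genes (34.8% of all genes) and MBC mouse 4 for 15 (39.8%). Hmgcs1 was at 62.8 TPM in mouse 5 and at 22.1, 21.3 and 23.2 TPM in mice 6 to 8. Mouse 5 was thus above the Myc WT range and the other 3 were below it, for a log2 difference of -0.59 (SE 0.34, adjusted p = 0.400). Fdps was at 58.1 TPM in mouse 5 and at 24.8, 20.01 and 25.45 TPM in mice 6 to 8, and here mouse 5 was inside the Myc WT range and the others below it.

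Cyp51 was at 51.3, 23.9, 21.1 and 21.9 TPM, with mouse 5 within the Myc WT range and the others below it (log2 difference -0.91, SE 0.30, adjusted p = 0.174). Idi1 was at 42.4, 26.0, 15.7 and 21.2 TPM, again with mouse 5 alone inside the Myc WT range (log2 difference -0.83, SE 0.33, adjusted p = 0.234). With protein-coding scaling these differences were smaller, -0.22 for Hmgcs1, -0.19 for Fdps, -0.54 for Cyp51 and -0.46 for Idi1, and 3 of the 4 Myc VD libraries lay inside the Myc WT range of Idi1. Msmo1 ran at 54.0, 18.5, 9.08 and 16.5 TPM, mouse 5 above every Myc WT library and the others below. Without mouse 5, Cyp51 and Scd2 were lower at an adjusted p under 0.05, and the median of the 32 genes was -0.60. Calls rose over the whole table there, with 242 lower genes of 12846 tested, against 5 of 12869 with mouse 5. With protein-coding scaling added, a choice made after seeing the data, 0 of the 32 passed without mouse 5 and their median was -0.20.

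Sqle was at 55.6, 35.2, 32.2 and 27.9 TPM in Myc VD mice 5 to 8, around the Myc WT range. Its log2 difference was -0.12 and turned to 0.26 with protein-coding scaling. Fdft1 (17.7, 14.1, 9.92 and 11.7 TPM) and Dhcr7 (18.5, 10.7, 14.7 and 8.65 TPM) overlapped with Myc WT, and their log2 differences of -0.28 and -0.30 also turned, to 0.084 and 0.063. Hsd17b7 went from -0.30 to 0.043. Lss was highest in mouse 6, at 27.4 TPM, and lay between 5.12 and 13.5 TPM in the other Myc VD mice. Acat2 was likewise highest in mouse 6, at 34.95 TPM. Pmvk, Nsdhl, Mvd, Tm7sf2, Ebp and Sc5d overlapped between the genotypes, with log2 differences from -1.02 (Mvd) to 0.04 (Nsdhl), and Mvk is listed at 0 in mouse 6.

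Among the regulators, Srebf1 was at 55.5, 90.2, 47.5 and 19.96 TPM in Myc VD mice 5 to 8, with 3 animals above the Myc WT range and mouse 8 below it. The log2 difference was 0.74 (SE 0.38, adjusted p = 0.352). As protein-coding TPM it was at 116, 215, 120 and 65.0, against 43.7, 64.7, 48.0 and 60.02 in Myc WT, and there the groups were set apart by mouse 8 and Myc WT mouse 2 at nearly the same level (log2 difference 1.12, adjusted p = 0.223). Srebf2 was at 52.6, 53.8, 49.0 and 31.3 TPM, and Scap at 31.4, 16.4, 19.6 and 15.2 TPM, both overlapping with Myc WT. As protein-coding TPM their lowest Myc VD libraries, 102 and 38.9, lay just above the highest Myc WT libraries, 95.9 and 36.7. Neither passed the test on either scale.

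Stard4 was at 16.4, 7.34, 8.57 and 5.70 TPM in Myc VD, with mouse 5 inside the Myc WT range and the others below it (log2 difference -1.07, SE 0.35, adjusted p = 0.174, exact permutation p = 0.0571). Insig2 was at 17.0, 6.76, 7.38 and 11.8 TPM, of which only mouse 5 was in the Myc WT range (log2 difference -1.06, adjusted p = 0.176). Insig1 was at 36.5, 24.0, 15.1 and 25.0 TPM and overlapped (log2 difference -0.43). On the fatty acid side, Acly (39.0, 46.5, 24.3 and 28.9 TPM), Acaca (14.8, 28.1, 10.5 and 13.9 TPM) and Fasn (63.7, 34.4, 16.2 and 20.7 TPM) overlapped with Myc WT. For Fasn the highest value was that of mouse 5, and for Acly and Acaca that of mouse 6. Elovl6, Fads1 and Fads2 overlapped as well, with log2 differences of 0.16, -0.59 and -0.32.

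By role, the share of protein-coding RNA had nearly the same mean in both genotypes for sterol synthesis and a higher mean in Myc VD for the regulators, mostly through Srebf1. Mevalonate and isoprenoid genes took 0.0376% ± 0.0115 (SD, n = 4) in Myc VD LZ, and squalene to cholesterol genes 0.0455% ± 0.0115, with wider SDs than in Myc WT. SREBP control and sterol transport genes took 0.0409% ± 0.00555, from 0.0355% to 0.0472%, against 0.0321% ± 0.00227 in Myc WT, from 0.0303% to 0.0354%, so that the ranges nearly touched. Without Srebf1 the other 5 took 0.0252% to 0.0322% in Myc VD and 0.0254% to 0.0289% in Myc WT, with overlap. The fatty acid genes took 0.0509% ± 0.00951.

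Genes around the pathway were taken from 5 further lists. In Myc VD LZ, 0 of the 40 genes tested passed in either direction. In MBCs 1 of 41 passed as higher and 0 as lower, below the shares of all genes given above (4.17% and 5.04%). It was Abca1, the pump that loads cholesterol onto lipoproteins and a target of LXR. It was at 5.98, 3.86, 4.77 and 4.02 TPM in Myc WT LZ and at 76.6, 24.8 and 31.3 TPM in MBCs (log2 difference 2.84, SE 0.47, adjusted p = 0.00992). No MBC library came near the LZ libraries. Csf1r, Vcam1, Itgam and Cd68 of the myeloid list were higher in the same libraries. Lyz2 of that list was at 0.15, 31.2 and 136 TPM in MBCs of mice 1, 3 and 4, against 0.70 to 5.71 TPM in Myc WT LZ. Adgre1 was at 0, 0.85 and 6.35 TPM in MBCs. Both were lowest in mouse 1, where Abca1 was highest. The part of myeloid RNA in the values of Abca1 was not tested. By list, the median log2 difference in MBCs was 0.55 over 9 genes of LXR and sterol efflux, storage and lysosomal export, 0.76 over the 2 SREBP proteases, -0.06 over 10 genes of prenyl transfer and other mevalonate branches, -0.34 over 8 genes of other fatty acid synthesis, and 0.01 over 12 of fatty acid oxidation. In Myc VD LZ the medians in that order were -0.66, -0.21, -0.44, -0.44 and -0.36, beside -0.32 for all protein-coding genes.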

How the data were processed

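Sorted LZ B cells and MBCs were sequenced as total RNA. Per the labels and the methods of the study, the authors aligned reads with STAR 2.5.2a, quantified Ensembl genes of GRCm38 with RSEM 1.3.0 strand by strand, and deposited the result as TPM with 2 decimals in 1 column per library. The annotation release and the read numbers are not given in the sources used here. TPM sum to a fixed total, so that more of some features means less of all others, and counting errors are unknown. The labels also name DESeq2 1.18.1, which the authors ran on counts not used here.

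Symbols, biotypes and coordinates came from GENCODE M21 (GRCm38), which named 48435 of the 48795 genes. Groups were taken from the labels of the samples, and no pair of libraries held identical values. Each comparison was fitted with limma 3.58.1 in R 4.3.3 (lmFit, eBayes with a trend) on log2(TPM + 1), with only its 2 groups, keeping genes whose mean reached 1 TPM, which all 32 lipid synthesis genes passed. All p-values are two-sided, adjusted by Benjamini-Hochberg over the genes tested, at a threshold of 0.05. Fold changes on this scale understate the changes of low genes. For single genes, exact permutation tests ran over the 70 groupings of 4 animals against 4 and the 35 of 3 libraries against 4, where 0.0286 is the smallest p. Groups were called not overlapping where all libraries of one lay beyond all of the other. Sums and percentiles were computed with Python 3.11.15 (numpy 2.4.6, pandas 2.3.3, scipy 1.17.1, matplotlib 3.10.9), near-identical transcripts were matched with blastn 2.17.0, and the fits were tested on simulated data. The antisense and same-strand overlaps of exons were listed for all genes. Lss, Cyp51, Fdft1, Srebf1, Scap, Hmgcs1, Idi1 and Elovl6 overlap an exon of another gene on the other strand, which strand-specific counting sets apart, and Fdps, Tm7sf2, Srebf1 and Scd2 overlap one on the same strand.

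Values in every library of all groups are given for a set of 17 genes of all roles. For other genes that passed a test or whose groups did not overlap, they are given for the libraries of that comparison. The rest are given by range and counts. The genes, gene lists and tests were chosen with earlier results of these data known. MBC and LZ libraries with the same number share an animal by their titles. Across genes, the correlation of their deviations from their group means was r = 0.00471, 0.00169 and -0.035. Alternatives included no filter, a filter at 5 TPM, a pseudocount of 0.1, scaling to protein-coding TPM, median ratio scaling, quantile normalization, removal of immunoglobulin, mitochondrial and ribosomal RNA genes, the mouse as replicate block, 1 fit over all 3 groups, no trend and each library left out. Leaving out libraries or using the block together with protein-coding scaling was chosen after seeing the data.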

Additional observations from a re-analysis of the deposited data

Results flagged for a closer look

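Within groups of 4 libraries, 5 values of the lipid synthesis genes lay so far from the other 3 that Dixon's test at the 95% level marked them, of 64 groups tested, where chance alone marks about 1 in 20. In Myc VD LZ all 3 were of mouse 5, with Hmgcs1 at 62.8 TPM, Fdps at 58.1 TPM and Cyp51 at 51.3 TPM, each far above the other Myc VD animals. In Myc WT LZ they were Fdft1 at 21.9 TPM in mouse 3 and Fads2 at 7.50 TPM in mouse 1. Groups of 3 libraries, such as the MBCs, were not examined in this way.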

How the results depend on the processing

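Values rest on 3 or 4 animals a group and on TPM without depth, so that a gene listed at 0 has no lower limit. The p-values measure the spread between the libraries of a group. In MBCs, outside the replicate block, they treat libraries of the same animal as independent. In MBCs, 6 lower genes and 1 higher passed. The number lower was 3 without a filter, where 279 of all 24025 genes tested were lower, and 10 with quantile normalization, where 985 of 13245 were. The number higher was 0 without a trend, where 399 of 13245 genes were higher. Both numbers were 0 with the replicate block, where 118 of 13151 genes were lower and 130 higher. With protein-coding scaling added to the block they were also 0, where 84 genes were lower and 111 higher. With a pseudocount of 0.1 the median log2 difference was -1.85, and -1.60 relative to all protein-coding genes. With each library left out in turn, on TPM and with protein-coding scaling, 1 to 12 genes were lower and 1 was higher in each case. Over the same fits 1.03% to 14.5% of all genes tested were lower and 1.56% to 8.39% higher, so that the number lower moved with the general rate. The causes were not tested.

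In Myc VD LZ, the number lower was 0 under every alternative but those leaving out a library, where it ran from 0 to 2. It was 2 without mouse 5, where 242 of all 12846 genes tested were lower. Over the fits leaving out a library the median log2 difference ran from -0.60 to 0.14, and from -0.22 to 0.12 relative to all protein-coding genes. Signs of single genes turned. Under protein-coding scaling, median ratio scaling and removal of immunoglobulin, mitochondrial and ribosomal RNA genes, in that order, the log2 difference was 0.084, 0.045 and 0.049 for Fdft1, 0.26, 0.22 and 0.22 for Sqle, 0.043, 0.0091 and 0.0098 for Hsd17b7, 0.063, 0.025 and 0.029 for Dhcr7, and 0.25, 0.21 and 0.22 for Pmvk, and with quantile normalization it was 0.11 for Sqle and 0.13 for Pmvk. Leaving out libraries on either scale gave a range from -0.26 to 0.60 for Acat2, -0.42 to 0.21 for Fdft1, -0.32 to 0.32 for Sqle, -0.26 to 0.83 for Lss, -0.64 to 0.27 for Hsd17b7, -0.47 to 0.16 for Dhcr7, -0.030 to 0.49 for Srebf2, -0.62 to 0.16 for Insig1, -0.20 to 0.62 for Acaca, -0.14 to 0.87 for Fasn, -0.83 to 0.23 for Fads1, -0.58 to 0.38 for Fads2, -0.98 to 0.36 for Mvk, -0.41 to 0.41 for Pmvk, -1.09 to 0.25 for Tm7sf2 and -0.22 to 0.72 for Nsdhl. In MBCs the range was -0.16 to 0.0049 for Srebf2, -1.73 to 0.87 for Scap, -0.067 to 0.97 for Acly, -0.67 to 0.043 for Acaca, -1.28 to 0.063 for Fasn, -0.80 to 0.84 for Mvk, -0.94 to 0.15 for Nsdhl, -1.34 to 0.57 for Ebp, -0.66 to 0.12 for Sc5d and -2.05 to 0.73 for Insig2, and no gene that passed turned its sign. That of Mvk was -0.15 with a pseudocount of 0.1, and -0.053 and -0.032 with the replicate block, on TPM and with protein-coding scaling.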

Other observations

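Of the 40 genes around the pathway that did not pass the adjusted test in MBCs, 6 with higher values are given here, chosen after their values were seen. Abcg1, a sterol pump, was at 2.80 to 6.48 TPM in Myc WT LZ and at 9.17 to 34.3 TPM in MBCs (log2 difference 1.99, limma adjusted p = 0.0536). Lipa, the lysosomal lipase that frees cholesterol, was at 7.25 to 9.21 TPM and at 18.7 to 39.6 TPM (1.48, adjusted p = 0.0540). Mylip, which marks lipoprotein receptors for breakdown, was at 8.10 to 12.3 TPM and at 17.2 to 52.5 TPM (1.59, adjusted p = 0.0553). Mbtps1, the protease that makes the first cut in the SREBP proteins, was at 14.4 to 22.1 TPM and at 29.3 to 82.1 TPM (1.43, adjusted p = 0.0554). Acsl1, which activates long-chain fatty acids, was at 7.39 to 8.99 TPM and at 15.1 to 39.4 TPM (1.47, adjusted p = 0.0620). Elovl5, which lengthens polyunsaturated fatty acids, was at 21.7 to 32.1 TPM and at 49.8 to 59.2 TPM (0.93, adjusted p = 0.0725). Over all 41 genes of these lists tested, 10 were higher in MBCs without overlap of the ranges and 0 lower, where 11.8% and 14.4% of all genes were. Others of the same lists had lower values without passing, such as Hadh (-1.70), Pdss1 (-1.25) and Cpt2 (-1.18). The higher myeloid genes of the MBC libraries stand beside them untested.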
